A study of Mus musculus with 4 samples.

Results

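Killer lymphocytes of the mouse colon were followed through 8 genes whose products they release or display to kill or to alarm other cells: Gzma, Gzmb, Prf1, Nkg7, Ifng, Xcl1, Ccl5 and Fasl. The genes were chosen by symbol, and each symbol had 1 row among the 32285 genes counted. Cells came from the colon of C57/BL6J mice and their transcripts were counted cell by cell with a droplet method in 2 batches. Each batch was a mix of 4 conditions: JUP-KO mice given DSS (dextran sulfate sodium, which damages the colon epithelium and serves as a model of colitis), untreated JUP-KO mice, wild type mice given DSS and untreated wild type mice. Jup encodes plakoglobin, a protein of cell junctions. How the knockout was made and in which cells it acts are not given in the sources used here. How many mice were pooled and whether the batches are separate mice are not given either, so the spread between batches may be technical. The main fits below had 1 residual degree of freedom and shared an estimate of that spread across genes. Their SEs and p-values therefore need not reflect a gene's own differences between batches.

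The conditions carry the antibody tags TG_DSS, TG_WT, Ctrl_DSS and Ctrl_WT. TG_DSS is JUP-KO given DSS and Ctrl_WT is untreated wild type under both readings of the labels. By name TG_WT is untreated JUP-KO and Ctrl_DSS is wild type given DSS, and by antibody number these change places. In epithelial-like cells of batches 1 and 2, Jup had 30.7 and 49.8 CPM (counts scaled to a common total) in cells labelled TG_DSS, 78.7 and 92.1 in TG_WT, 13.7 and 9.75 in Ctrl_DSS and 77.0 and 56.9 in Ctrl_WT. Jup was thus lowest in cells labelled Ctrl_DSS, a name without the TG of the other pair, and groups are called here only by their tag.

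Cytotoxic T cells and natural killer (NK) cells keep granules that hold perforin and granzymes and empty them onto a target cell. Perforin opens the target's membrane, granzymes are proteases that enter and start cell death, and FASL kills through the death receptor FAS. The same cells secrete interferon gamma and the chemokines XCL1 and CCL5, which activate or attract macrophages, dendritic cells and other lymphocytes. In the gut such cells include CD8 T cells, many of them in the epithelium, gamma-delta T cells, NK cells and group 1 innate lymphoid cells. T cells carry the CD3 complex on their surface, and NK and innate lymphoid cells do not.

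Of 13629 cells kept, 344 (2.52%) were T, NK and innate lymphoid-like, 100 in batch 1 and 244 in batch 2. They had a median of 2848 UMIs (unique molecular identifiers, each standing for 1 captured transcript). The following lineage genes are from the marker list that named these cells, so their shares do not test the name. Trac was found in 34.6% of the 344 cells, Trdc in 26.2%, Cd8a in 22.7%, Ncr1 in 8.43% and Cd4 in 2.91%. A total of 14 barcodes of kept cells occurred in both batches. All levels below are CPM of UMIs counted at the 3' end of transcripts, which are not scaled by length. Intervals are 95% intervals, exact Poisson for CPM and exact Clopper-Pearson for shares of cells, and cover counting error only.

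The granule genes are shown with their promoters, since the products of Gzma, Gzmb and Prf1 act together from 1 granule. The sequences are the 250 bases before the RefSeq start of each gene in GRCm38.p6 (the mm10 build), read 5' to 3' on the strand of the gene. Capitals mark the RUNX motif (TGTGGT, or ACCACA on the other strand) and the AP-1 motif (TGANTCA, its own reverse complement).
Gzma, minus strand, chr13:113100982-113101231: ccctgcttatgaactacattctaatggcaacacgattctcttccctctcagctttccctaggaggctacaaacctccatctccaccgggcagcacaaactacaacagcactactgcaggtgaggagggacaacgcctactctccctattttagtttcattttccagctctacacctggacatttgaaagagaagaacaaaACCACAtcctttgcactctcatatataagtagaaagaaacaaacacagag
Gzmb, minus strand, chr14:56262335-56262584: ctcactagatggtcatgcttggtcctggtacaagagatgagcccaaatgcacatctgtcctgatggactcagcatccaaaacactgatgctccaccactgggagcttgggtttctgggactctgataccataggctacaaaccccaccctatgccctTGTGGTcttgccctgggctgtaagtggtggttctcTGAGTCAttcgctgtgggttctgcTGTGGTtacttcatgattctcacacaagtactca
Prf1, plus strand, chr10:61297586-61297835: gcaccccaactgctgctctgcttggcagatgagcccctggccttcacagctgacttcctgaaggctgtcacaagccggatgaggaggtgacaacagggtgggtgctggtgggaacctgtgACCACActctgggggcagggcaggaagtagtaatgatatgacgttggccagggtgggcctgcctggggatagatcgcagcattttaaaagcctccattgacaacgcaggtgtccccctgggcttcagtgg
The RUNX motif began 50 bases before the start of Gzma, 93 and 34 bases before that of Gzmb and 130 bases before that of Prf1. The AP-1 motif stood 58 bases before the start of Gzmb, between its RUNX matches and overlapping neither. Among 32851 RefSeq promoters of the same length, 14.0% held the RUNX letters and 6.75% the AP-1 letters on either strand. Promoters of 7 of the 8 genes were matched, all but Ccl5, and 5 of these 7 held the RUNX letters, Nkg7 at 83 and Xcl1 at 227 bases besides the 3 printed. The T-box letters (GGTGTGA, or TCACACC), present in 3.33% of promoters, stood at 13 bases in Nkg7 and 188 in Xcl1. The STAT letters (TTCNNNGAA), present in 7.02%, stood at 220 bases in Nkg7 and 249 in Ifng. The window of Fasl held none of the 4. These are matches of letters only.

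Most transcripts of 7 of the 8 genes lay in the lymphoid-like cells, although these were few. Granzyme A (Gzma, ENSMUSG00000023132, mm10 chromosome 13, 113093825 to 113100981, minus strand) had 3872 of its 5169 UMIs there (74.9%). Granzyme B (Gzmb, ENSMUSG00000015437, chromosome 14, 56258838 to 56262260, minus strand) had 2035 of 3177 (64.1%). Perforin (Prf1, ENSMUSG00000037202, chromosome 10, 61297833 to 61304680, plus strand) was rare, with 40 of 60 UMIs there (66.7%). The granule membrane protein gene Nkg7 (ENSMUSG00000004612, chromosome 7, 43437073 to 43438249, plus strand) had 834 of 1075 (77.6%). Each granule gene thus had most of its transcripts in lymphoid-like cells, with Gzmb the least concentrated of the 4.

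Among the secreted and surface signals, interferon gamma was the most concentrated. Ifng (ENSMUSG00000055170, chromosome 10, 118441046 to 118445892, plus strand) had 1068 of 1165 UMIs in lymphoid-like cells (91.7%). Fasl (ENSMUSG00000000817, chromosome 1, 161780689 to 161788495, minus strand) had 94 of 120 (78.3%). Xcl1 (ENSMUSG00000026573, chromosome 1, 164931644 to 164935527, minus strand), which overlaps the antisense gene Gm20743 with 6 UMIs in these cells, had 2991 of 4140 (72.2%). Ccl5 (ENSMUSG00000035042, chromosome 11, 83525778 to 83530518, minus strand) was the exception, with 6198 of 14439 (42.9%).

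Within the lymphoid-like cells, Nkg7 was found in 158 of 344 (45.9%), Ccl5 in 157 (45.6%) and Xcl1 in 141 (41.0%). Gzmb was found in 93 (27.0%), Fasl in 56 (16.3%), Ifng in 52 (15.1%), Gzma in 43 (12.5%) and Prf1 in 26 (7.56%). Gzma was therefore a gene of few cells with many transcripts each, while Nkg7 was a gene of many cells. Epithelial-like cells, which should lack these genes and had a median of 15436.5 UMIs, gave the background: 1.25% of 6788 had a Ccl5 UMI and at most 0.28% had a UMI of any other member. With each cell thinned to 1000 UMIs (24 lymphoid-like cells were shallower and left out), the lymphoid-like shares were 41.6% for Ccl5, 35.3% for Xcl1, 33.8% for Nkg7, 20.3% for Gzmb, 12.5% for Gzma, 9.38% for Ifng, 4.69% for Fasl and 3.44% for Prf1.

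**Figure D1:**
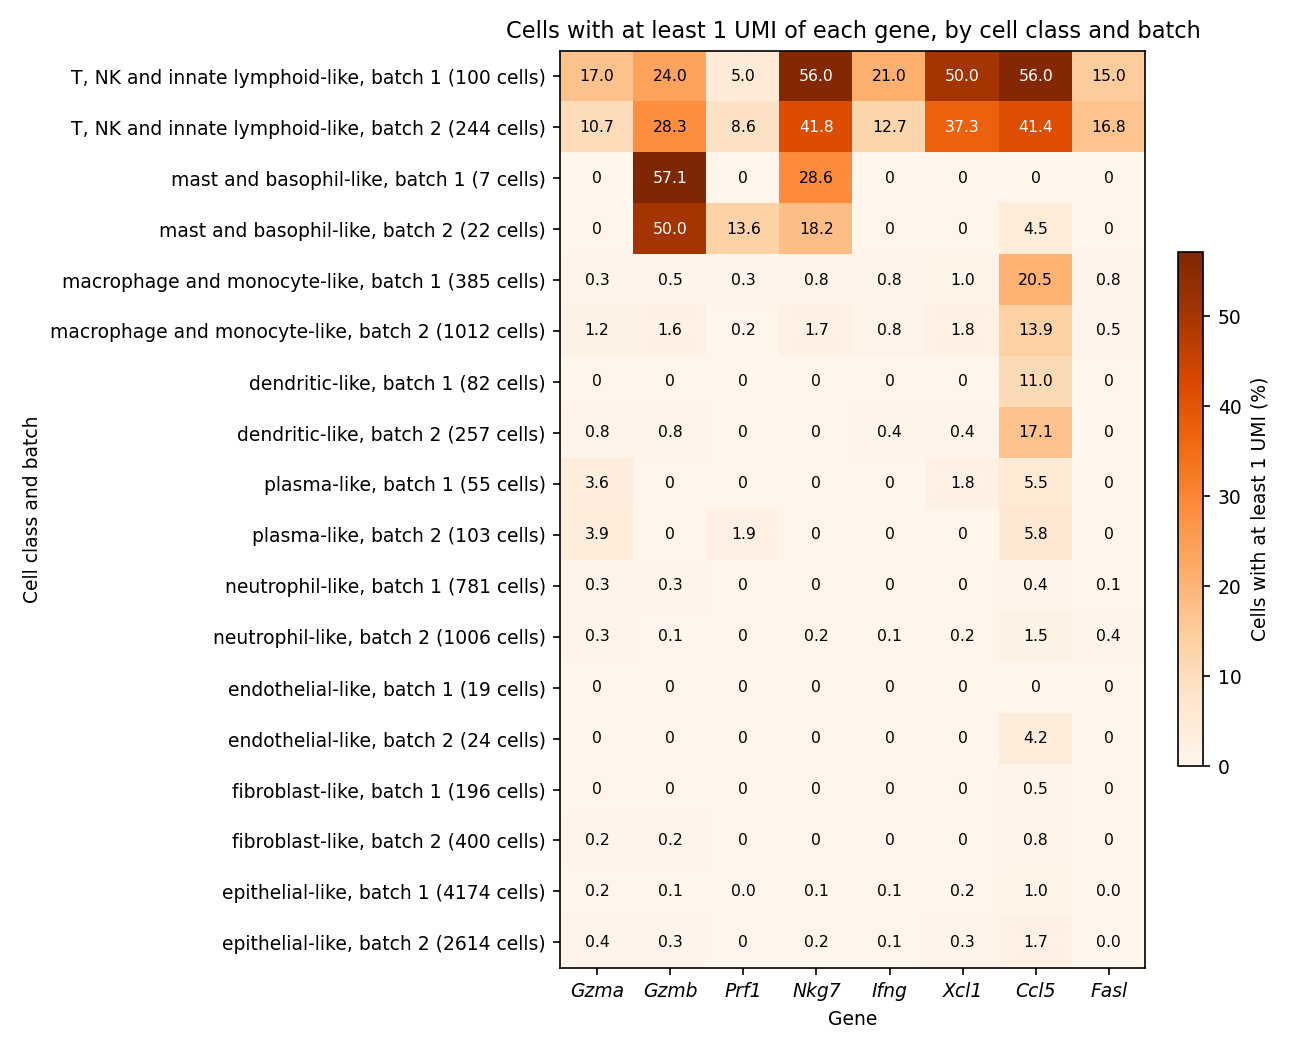
Percent of cells with at least 1 UMI of each of the 8 genes (columns), in each cell class and batch (rows, with lymphoid-like cells on top). The lymphoid-like rows stand out for Nkg7, Xcl1, Ccl5, Fasl, Ifng and Gzma, Gzmb and the sparse Prf1 are also seen in mast and basophil-like cells, and Ccl5 is also seen in macrophage and monocyte-like and dendritic-like cells.

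The level of some genes in lymphoid-like cells differed between batches more than counting error. Gzma had 5010 CPM in batch 1 and 2210 in batch 2, Ccl5 had 7680 and 3660, and Ifng had 326 and 989. Xcl1 (2090 and 2340), Gzmb (1330 and 1630), Nkg7 (724 and 604), Fasl (75.0 and 70.4) and Prf1 (26.0 and 32.1) lay closer together. A few cells carried much of the Gzma and Ifng levels. Of the 1736 Gzma UMIs of batch 1, 712 were in 1 cell, and of the Ifng UMIs of batch 2, 722 were in 1 cell.

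Cells with Cd3 transcripts (at least 1 UMI of Cd3d, Cd3e or Cd3g; 79 in batch 1 and 172 in batch 2) were then set against those without (21 and 72). Gzma, Ccl5 and Gzmb were higher in the Cd3-positive cells, and Gzma was nearly confined to them. Nkg7, Xcl1, Fasl and Ifng did not pass the test, and Prf1 was too low to enter it. The sums per batch and class were fitted with edgeR's quasi-likelihood test over 4130 genes, with batch as a block and 1 residual degree of freedom. Benjamini-Hochberg adjustment at 0.05 called 45 genes higher (1.09%), 83 lower (2.01%) and 128 in all (3.1%). The 45 include Cd3d, Cd3e and Cd3g, which define the classes. Of the 7 members tested, 3 were higher and 0 lower. At an unadjusted p under 0.05 the fit had 435 genes.

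Gzma, the granzyme that cleaves after basic residues, had 5660 CPM (5401 to 5938) in batch 1 and 2830 (2713 to 2954) in batch 2 in Cd3-positive cells, against 49.2 (6.0 to 177.7) and 18.8 (5.1 to 48.1) in Cd3-negative cells. The levels did not overlap, and Cd3-negative cells held 2 and 4 UMIs in the batches. The ratio of levels was 115 (31.8 to 952) in batch 1 and 151 (58.8 to 554) in batch 2, and the fitted log2 fold change was 7.07 (SE 0.66, edgeR adjusted p = 4.45e-09). Part of this level came from few cells, since 3 cells held 37.6% of the Gzma UMIs of Cd3-positive cells. By share of cells the difference was smaller: 15.1% of Cd3-positive and 5.38% of Cd3-negative cells had a Gzma UMI. Ambient RNA held 15.8 CPM of Gzma in batch 1 and 29.2 in batch 2, so the Cd3-negative level of batch 2 was below ambient and that of batch 1, from 2 UMIs, had an interval that spans it.

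When Cd3 status was read from cells thinned to 1000 UMIs, the fold change of Gzma was 0.14 (edgeR adjusted p = 0.977). In that setting 27 of 251 Cd3-positive cells (10.8%) counted as negative, and they held 26.1% of the Gzma UMIs and 23.2% of the Gzmb UMIs of Cd3-positive cells. The call was kept in 13 of 14 alternatives with a test.

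Ccl5, a chemokine that attracts T cells and macrophages, had 8640 CPM (8315 to 8977) in batch 1 and 4260 (4110 to 4407) in batch 2 in Cd3-positive cells, against 467 (281.3 to 729.7) and 1540 (1382 to 1720) in Cd3-negative cells. Both Cd3-positive levels were above both Cd3-negative ones, and the gap was wider in batch 1. The log2 fold change was 2.71 (SE 0.62, edgeR adjusted p = 0.00728), with 4.19 within batch 1 and 1.46 within batch 2. A Ccl5 UMI was found in 56.2% of Cd3-positive and 17.2% of Cd3-negative cells, or 49.6% and 16.7% after thinning. The call was lost in 4 of 14 alternatives, among them DESeq2 (adjusted p = 0.644) and the fit with no replicate block (adjusted p = 0.0676).

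Gzmb, the granzyme that cleaves after aspartate and activates caspases, had 1510 CPM (1372 to 1650.0) in batch 1 and 1870 (1774 to 1970.2) in batch 2 in Cd3-positive cells, against 24.6 (0.6 to 137.0) and 774 (660.8 to 902.0) in Cd3-negative cells. The groups did not overlap, but the Cd3-negative cells differed widely between batches. In batch 2, 113 of their 165 UMIs were in 1 cell, the one that also had the most Ifng. The log2 fold change was 2.38 (SE 0.57, edgeR adjusted p = 0.00978), with 5.62 within batch 1 and 1.27 within batch 2. The call held in 6 of 14 alternatives, DESeq2 gave an adjusted p of 1, and without that cell the fold change was 3.46 (edgeR adjusted p = 2.94e-08).

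The other granule genes did not separate the classes by this test. Nkg7, needed for granule release, had 797 and 665 CPM in Cd3-positive cells, against 172 and 385 in Cd3-negative cells, with no overlap (log2 fold change 1.32, SE 0.42, edgeR adjusted p = 0.0921). It passed the threshold in 5 of 14 alternatives, including the fit without the cell with the most Ifng (1.39, adjusted p = 0.0188). That fit is counted 2 times in the tallies of alternatives, since leaving out cells by Scrublet score removed the same 1 lymphoid-like cell. Prf1 had 26.1 and 29.2 CPM in Cd3-positive cells, from 8 and 22 UMIs, against 24.6 and 42.2 in Cd3-negative cells, from 1 and 9 UMIs. These values overlapped, and the depth cannot show a difference for perforin.

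Xcl1, which attracts XCR1-bearing dendritic cells, had 2260 and 2420 CPM in Cd3-positive cells, against 861 and 2080 in Cd3-negative cells (log2 fold change 0.79, SE 0.47, edgeR adjusted p = 0.636). Fasl had 81.7 and 73.0 CPM in Cd3-positive cells, against 24.6 and 61.0 in Cd3-negative cells (0.49, SE 0.55, adjusted p = 0.884). Neither gene passed in any alternative, and in batch 2 the classes lay close together.

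Interferon gamma was far higher without Cd3 in batch 2, while in batch 1 the intervals of the classes overlapped. Ifng had 340 (277.6 to 411.7) CPM in batch 1 and 121 (97.3 to 148.4) in batch 2 in Cd3-positive cells, against 221 (101.2 to 420.2) and 4060 (3789 to 4335) in Cd3-negative cells. The high value of batch 2 rested on 1 cell labelled TG_WT with 722 of 864 UMIs, no Cd3 UMI and 4 Ncr1 UMIs. By share of cells the classes stood at 14.7% of Cd3-positive and 16.1% of Cd3-negative cells over all UMIs, but apart at matched depth, at 7.44% and 15.4% after thinning. The log2 fold change was -2.66 (SE 0.88, edgeR adjusted p = 0.111), and without that cell -1.28 (adjusted p = 0.0783). Ifng passed in 2 of 14 alternatives, with Cd3-positive cells taken from 2 UMIs (-2.65, adjusted p = 1.04e-04) and with Cd3 status from thinned cells (-3.16, adjusted p = 5.62e-12).

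**Figure D2:**
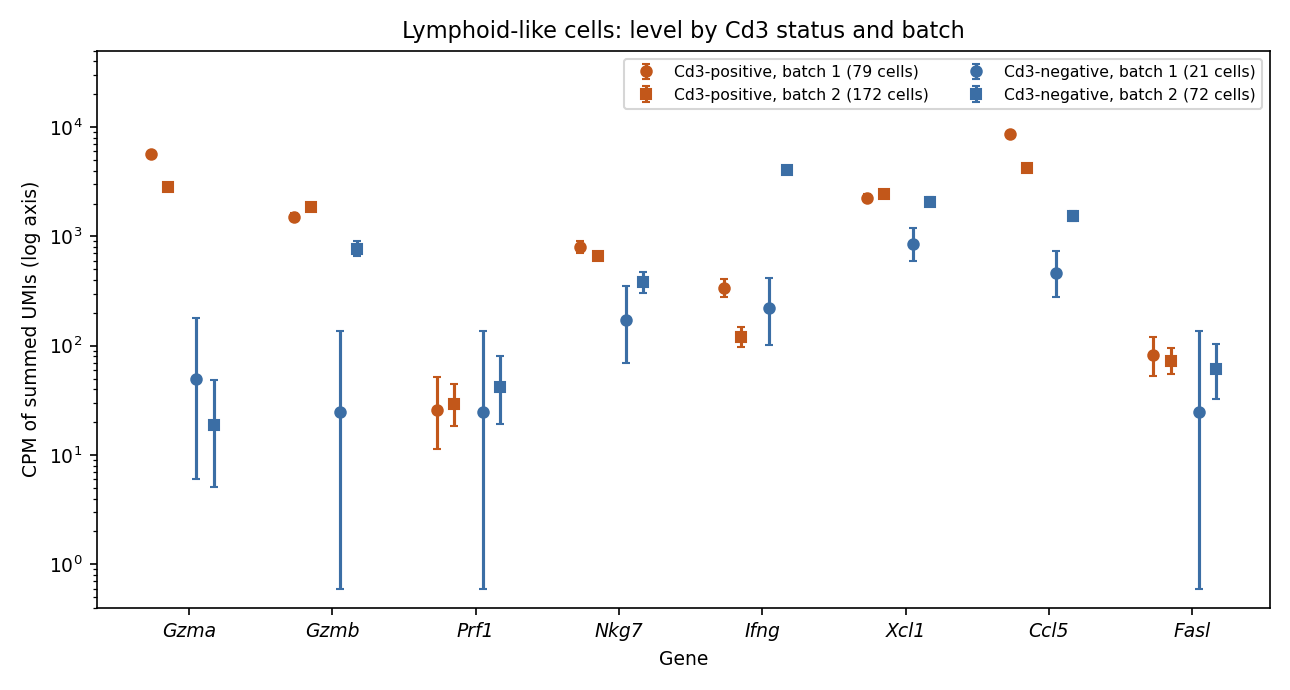
Level of each gene in CPM (log axis) in Cd3-positive (left of each pair) and Cd3-negative lymphoid-like cells, 1 point per batch with its 95% exact Poisson interval. Gzma has the widest gap, with 5660 and 2830 CPM in Cd3-positive cells and 49.2 and 18.8 CPM in Cd3-negative cells, and Ifng is the only gene whose batch 2 point is far higher without Cd3.

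The classes also differed in genes of T cells and of innate lymphoid cells. Trac, the constant part of the T cell receptor alpha chain, had 282 CPM in Cd3-positive cells and none in Cd3-negative cells, at least 23.8-fold higher against a floor of 3 counts over the class (edgeR adjusted p = 2.20e-07). A Trac UMI was found in 0 of 93 Cd3-negative cells, which, taking 3 cells as the limit of a count of 0, leaves room for up to 3.23% of cells with a UMI, while Trbc2, of a near-identical gene pair, was found in 35.5% of them and in 75.7% of Cd3-positive cells. Il17a, a cytokine of type 17 T cells, was at least 29.9-fold higher (353 and 0 CPM, adjusted p = 1.18e-07). The killer cell receptor genes Klra5, Klra1 and Klra6 were at least 12.9-, 5.91- and 5.11-fold higher, though reads of this gene family may be split between copies. Mei1 and Capn3 were at least 5.43- and 4.63-fold higher.

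Lower in Cd3-positive cells were the type 2 cytokine gene Il4, with 4.72 CPM against 189 in Cd3-negative cells (log2 fold change -5.38, SE 0.61, edgeR adjusted p = 2.33e-07), and the neutrophil chemokine gene Cxcl1, with 0.944 against 154 CPM (-6.76, SE 0.86, adjusted p = 1.44e-06). Klrb1b, an NK cell receptor gene, had 13.2 against 209 CPM (-4.08, SE 0.57, adjusted p = 6.31e-06). The remaining genes named by the rule, Fam184b, Hs3st1, Akap12, Igfbp7, Stxbp6, Dscam and Upp1, had log2 fold changes of -5.56 to -4.47.

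Lists of genes that work with the members gave few calls. Of 18 genes of granules and their release, 10 were tested, 0 were higher and 1 was lower in Cd3-positive cells, with a median log2 fold change of 0.17 against 0.02 over all genes tested. The 1 was Gzmc, a granzyme beside Gzmb in the genome (-2.85, edgeR adjusted p = 0.00794). It had 29.4 CPM in batch 1 and 247 in batch 2 in Cd3-positive cells, against 0 and 2970 in Cd3-negative cells. In batch 1, where 3 counts in Cd3-negative cells would make 73.8 CPM, the depth cannot show a direction. Cst7, Ctsw and Ctsc, an inhibitor and cathepsins of granules, had 1.69, 0.71 and 0.6, with adjusted p of 0.375, 0.58 and 0.702.

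Of 25 tested genes of killer cell receptors and their adaptors, 3 were higher and 3 lower (median -0.34). Cd8a, the CD8 coreceptor, rose by 5.57 (edgeR adjusted p = 1.83e-06) and the T cell receptor zeta chain Cd247 by 2.09 (adjusted p = 0.00718), while the NK receptor Ncr1 fell by 3.49 (adjusted p = 1.36e-06) and Klrg1 fell by 3.04 (adjusted p = 6.85e-04). Of 14 lineage regulators, Ikzf2 rose by 1.46 (adjusted p = 0.0337) and Gata3, the regulator of type 2 lymphocytes, fell by 2.91 (adjusted p = 6.42e-07; list median 0.09). Of 11 cytokine and chemokine genes, Il17a was higher and Il2 lower (-2.96, adjusted p = 0.00214; list median -1.03). Of 4 receptors for the members' products 0 were higher and 1, Sdc4, was lower (list median -0.27), and of 6 markers of other cells none passed (list median -0.68).

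Depth and traces of other cells also moved with the classes. Cd3-positive cells had a median of 3364 UMIs and Cd3-negative cells 2056. Summed epithelial markers had 771 and 839 CPM in the batches in Cd3-positive cells, against 1400 and 948 in Cd3-negative cells, with 18 and 17 against 13 and 14 of 20 markers detected. Neutrophil markers had 118 and 201 against 295 and 310 CPM, and macrophage markers 101 and 174 against 172 and 211 CPM. Their part in the results was not tested.

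Splitting the classes further by lineage genes showed where each effector was found. Of the 77 cells with Cd3 and Cd8a, 89.6% had Ccl5, 83.1% Nkg7, 70.1% Xcl1, 49.4% Gzmb and 41.6% Gzma. Of the 174 cells with Cd3 but no Cd8a UMI, 41.4% had Ccl5, 40.8% Nkg7, 36.2% Xcl1, 23.6% Gzmb and 3.45% Gzma. Fasl stood at 36.4% and 10.3%, Prf1 at 13.0% and 3.45%, and Ifng was nearly level at 15.6% and 14.4%. After thinning, Gzma stood at 37.7% with Cd8a and 3.64% without, Gzmb at 41.6% and 15.2%, and Ccl5 at 80.5% and 35.2%, while Ifng stood the other way, at 5.19% and 8.48%. All members but Ifng were thus found in a larger share of the Cd8a cells both before and after thinning. In CPM, Gzma had 12400 and 6500 in the batches in Cd3-positive Cd8a-positive cells, against 113 and 889 in Cd3-positive Cd8a-negative cells. Gzmb had 2980 and 2910 against 292 and 1320, and Ifng 79.6 and 76.8 against 554 and 144. The first of these classes was deeper, with a median of 4120 UMIs against 2808.

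Ncr1 is a receptor gene of NK cells and of group 1 and some group 3 innate lymphoid cells. Cells with Ncr1 and no Cd3 numbered 3 and 18 in the batches. Xcl1 was found in 71.4% of these 21, Nkg7 in 66.7%, Ccl5 in 47.6%, Gzmb in 42.9%, Ifng in 42.9%, Prf1 in 23.8% and Fasl in 23.8%. Gzma was found in 0 of 21. The 72 cells with neither Cd3 nor Ncr1 had every member in 6.94% to 12.5% of cells. The 4 classes were not tested against each other, since 1 of them had 3 cells in batch 1.

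Seen from the genes, the 43 cells with Gzma had the largest share with Cd8a among the 8 genes. Of them 38 had Cd3, 32 had Cd8a (74.4%), 21 had Trdc, 20 had Trac, 0 had Cd4 and 0 had Ncr1. Cells with Prf1 and Ifng were the most often Ncr1-positive, 8 of 26 (30.8%) and 14 of 52 (26.9%), against 8.43% of all lymphoid-like cells. Cells with either kind of T cell receptor had the members. Of 57 Cd3-positive cells with Trdc and no Trac UMI, 19.3% had Gzma, 36.8% Gzmb, 47.4% Nkg7, 52.6% Ccl5 and 45.6% Xcl1. Of 89 with Trac and no Trdc UMI, these shares were 11.2%, 29.2%, 58.4%, 56.2% and 51.7%.

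**Figure D3:**
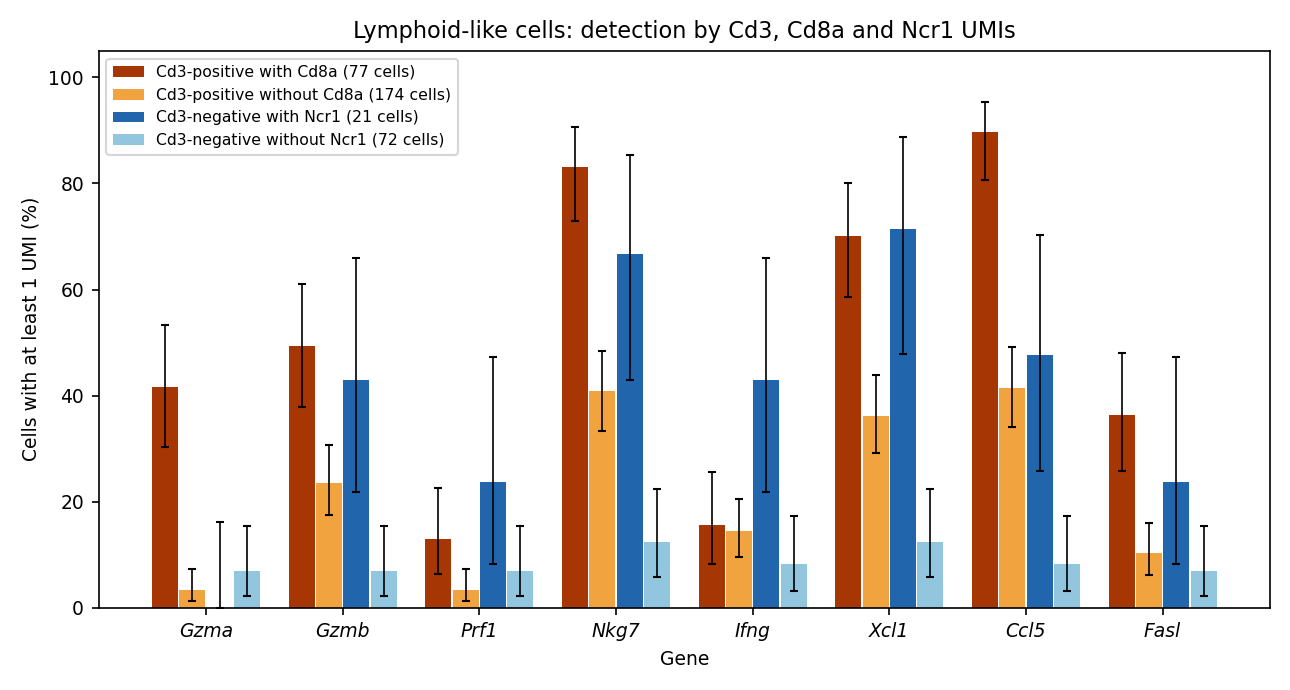
Percent of cells with at least 1 UMI of each gene in 4 classes of lymphoid-like cells by Cd3, Cd8a and Ncr1, both batches together, with 95% Clopper-Pearson intervals. Gzma is at 41.6% in the Cd3-positive Cd8a-positive cells and at 0% (interval up to 16.1%) in the 21 Cd3-negative Ncr1-positive cells. The latter reach 71.4% for Xcl1 and 42.9% for Ifng.

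Clustering that left the members out gave 5 lymphoid-like sub-clusters, and their member levels differed in kind. Sub-clusters 1, 3 and 6 (106, 70 and 35 cells, 81.4% to 97.1% of them Cd3-positive) carried the whole set. In sub-cluster 1, with Cd8a in 44.3%, Ccl5 had 5790 CPM, Gzma 5120, Xcl1 3060, Gzmb 2240 and Nkg7 857. In sub-cluster 6, led by the gamma chain gene Trgv2 and by Ly6c2, Ccl5 had 10500 CPM and was found in 82.9% of cells, with Gzma at 4180 and Nkg7 at 1170. In sub-cluster 3, with interferon-response genes and Foxp3 among its leading genes, Ifng had 3740 CPM, of which 3 cells held 93.9%.

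Sub-clusters 2 and 4 had lower levels of most members. In sub-cluster 2 (73 cells, led by Calca, Il5, Areg, Gata3 and Klrg1, genes of type 2 innate lymphoid cells) Gzma had 9.67 CPM, Nkg7 had 155 CPM, and Fasl was found in 0 of 73 cells. Its Gzmb level of 759 CPM rested on 1 cell with 148 of 157 UMIs. Of 10 markers of type 2 innate lymphoid cells, 3 (Gata3, Klrg1 and Areg) were found in at least 25% of its cells. The T cell genes Cd3d, Cd3e, Cd3g, Trbc1 and Trbc2 also reached that share, so sub-cluster 2 was not purely innate. In sub-cluster 4 (60 cells, led by Il17f, Il23r and Il22, genes of type 17 cells) Gzma had 3.83 CPM and Ccl5 257, but Gzmb had 375 and was found in 21.7% of cells. Xcl1 had 839 CPM there, and Il17a, which had 904 CPM in sub-cluster 4, had no UMI in sub-clusters 1, 3 and 6.

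The members were often found in the same cell. At least 1 was found in 231 of 344 lymphoid-like cells (67.2%) and at least 3 in 146 (42.4%), while 1 cell had all 8. After thinning these shares were 62.2% and 29.1%. At least 3 were found in 126 of 251 Cd3-positive cells and 20 of 93 Cd3-negative cells. Among cells kept apart as lymphoid mixed, which also carry markers of other cells, 8 of 11 (72.7%) and 10 of 26 (38.5%) had at least 3. In other classes these were 0 of 7 and 2 of 22 (9.09%) mast and basophil-like cells, 3 of 385 and 18 of 1012 macrophage and monocyte-like cells, 6 and 0 epithelial-like cells, and none of the neutrophil-like, dendritic-like, plasma-like, fibroblast-like or endothelial-like cells.

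Gzma cells were for the most part Gzmb cells, and the reverse did not hold. Of 43 cells with Gzma, 36 had Gzmb (83.7%), against 18.9% of the cells without Gzma, or 70.0% and 13.2% after thinning. Of 93 cells with Gzmb, 36 had Gzma (38.7%). Ccl5 was found in 88.4% of Gzma cells, against 39.5% of the others. Xcl1, by contrast, was found in 41.9% of Gzma cells and 40.9% of the others, or 27.5% and 36.4% after thinning.

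A second pairing joined the chemokines with Nkg7. Of 157 cells with Ccl5, 127 had Nkg7 (80.9%), against 16.6% of the others, or 63.9% and 12.3% after thinning. Of 158 cells with Nkg7, 117 had Xcl1 (74.1%), against 12.9%. Of the Prf1 cells, 84.6% had Nkg7 and 69.2% had Gzmb. Ccl5 was in 85.7% of Fasl cells, and Gzmb in 50.0% of Ifng cells against 22.9% of the others. Cells with more UMIs show more pairs, which is why the thinned values stand beside these, and shares over cells were not tested.

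**Figure D4:**
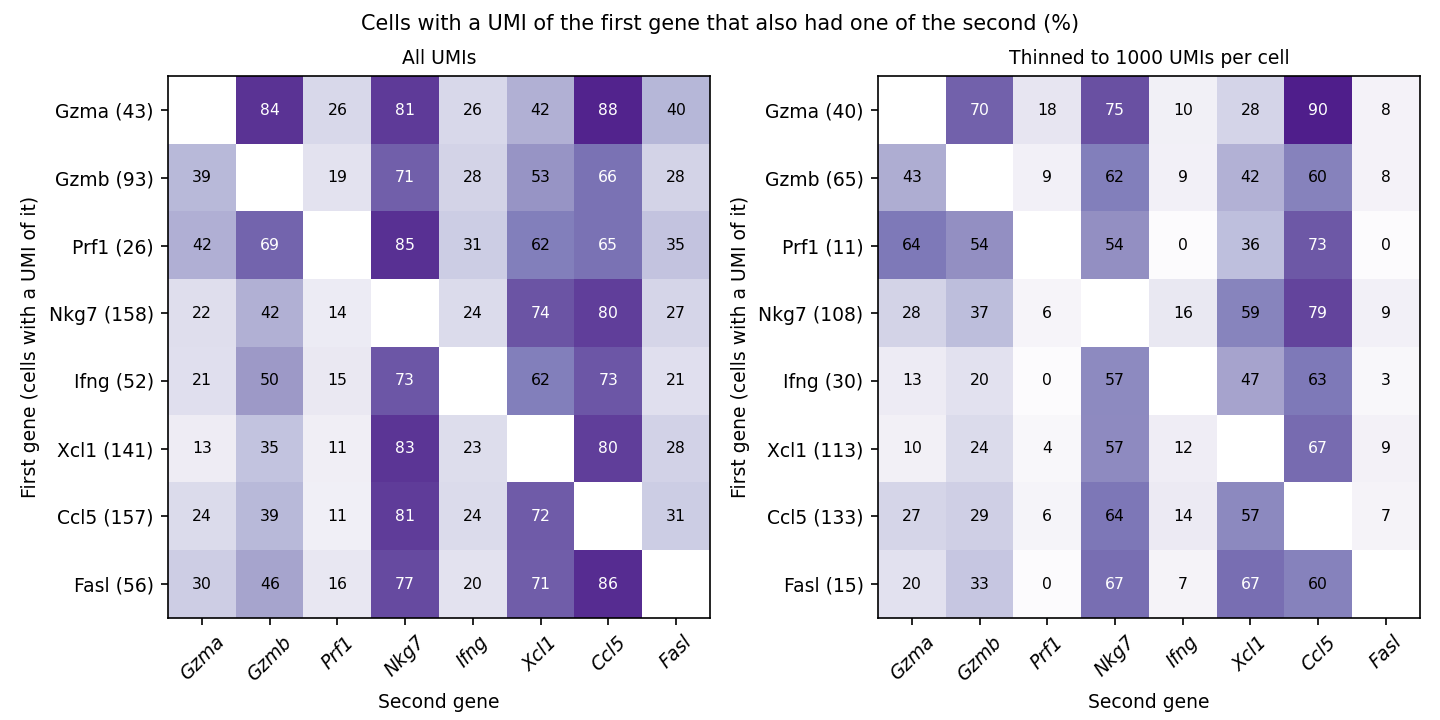
Percent of the lymphoid-like cells with the row's gene that also have the column's gene, over all UMIs (left) and with each cell thinned to 1000 UMIs (right). The Gzma row is high for Gzmb (83.7%, thinned 70.0%) and Ccl5 and lower for Xcl1 (41.9%, thinned 27.5%), and the Ccl5 and Nkg7 rows are high for each other.

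Across the 5 sums of a lymphoid-like sub-cluster and batch with at least 20 cells (sub-cluster 1 in both batches, and 2, 3 and 4 in batch 2), the genes most like each member were taken by Pearson r of log2(CPM + 1) among 891 genes. These 5 points share 2 libraries and differ in depth, and the values are descriptions. Gzma was nearest to Cd3d (0.994), Gm156 (0.993) and Cd8a (0.988), and Gzmb to Cd8a (0.962), Trbc2 (0.96) and Plac8 (0.955). Ccl5 was nearest to Fcer1g (0.996), Cd3g (0.992) and Cd3d (0.988), and Nkg7 to Gimap3 (0.996), Fcer1g (0.991) and Cd3e (0.98). Xcl1 was nearest to Tyrobp (0.982), an adaptor of NK receptors, Ctsw (0.979) and Klrd1 (0.973), and Fasl to Klrd1 (0.99), Agfg1 (0.986) and Gimap4 (0.981). For Prf1 these were Agfg1 (0.989), Rpl31 (0.986) and Dut (0.983), and for Ifng Mif (0.988), Snrpd2 (0.981) and Serbp1 (0.967).

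Gzmb was also carried by mast and basophil-like cells. In these 29 cells it had 3430 CPM in batch 1 (7 cells) and 5570 in batch 2 (22 cells), above its level in lymphoid-like cells in both batches, and it was found in 51.7% of them. In the mast-like sub-cluster 7, 15 of 21 cells had Gzmb (71.4%), and none had Cd3e. Prf1 was found in 10.3% and Nkg7 in 20.7% of mast and basophil-like cells, while Gzma, Ifng, Xcl1 and Fasl were found in 0 of 29, which by the same limit leaves room for up to 10.3% of cells with a UMI.

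Ccl5 outside lymphoid cells lay in macrophage and dendritic classes. Macrophage and monocyte-like cells had 1120 CPM in batch 1 and 420 in batch 2, with a UMI in 15.7% of 1397 cells. Dendritic-like cells had 166 and 466 CPM, with a UMI in 15.6% of 339 cells. Both lay well above the 1.25% of epithelial-like cells and the 1.01% of neutrophil-like cells, whose median depth (2877 UMIs) was lower than that of macrophage-like cells (5543). Ambient RNA, read from barcodes of at most 100 UMIs, held 79.5 and 110 CPM of Ccl5.

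The dendritic-like cells with Ccl5 more often had Ccr7, the receptor gene of dendritic cells that migrate to lymph nodes: 7 of 9 (77.8%) with Ccl5 against 10 of 73 (13.7%) without in batch 1, and 26 of 44 (59.1%) against 30 of 213 (14.1%) in batch 2. The shares went the same way in both batches. Of macrophage and monocyte-like cells, 5 of 79 (6.33%) with Ccl5 had a Cd3 UMI, against 3 of 306 (0.98%) without, and in batch 2 17 of 141 (12.1%) against 18 of 871 (2.07%). The macrophage receptor gene Csf1r was found in 69.6% with Ccl5 against 65.0% without in batch 1, and 78.7% against 66.5% in batch 2. The cell with the most Ccl5, 402 UMIs of 3969, was macrophage and monocyte-like and had 0 Cd3 UMIs.

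Transcripts of receptors for the members' products were found in several other classes. Xcr1, the receptor of XCL1, was found in 23.2% and 14.8% of dendritic-like cells in the batches and in 0% of lymphoid-like cells. Ccr1, a receptor of CCL5, was found in 76.1% and 81.0% of neutrophil-like and 55.6% and 61.3% of macrophage and monocyte-like cells. Its transcripts were therefore common in both myeloid classes.

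Fas, the receptor of FASL, was found in 57.5% and 55.7% of neutrophil-like cells and in 22.4% and 26.4% of epithelial-like cells. The interferon gamma receptor chain Ifngr1 was found in 60.0% and 70.5% of lymphoid-like and 75.6% and 79.8% of the deeper epithelial-like cells. With cells thinned to 1000 UMIs the order turned round, at 34.1% and 36.2% of lymphoid-like and 17.1% and 22.0% of epithelial-like cells, as in the levels of 433 and 490 CPM against 160 and 213 CPM. The second chain, Ifngr2, was found in 4.0% and 6.56% of lymphoid-like and 66.2% and 67.1% of epithelial-like cells, or 1.14% and 0.431% against 10.4% and 12.8% after thinning.

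The members were then compared between tags within lymphoid-like cells. Ccl5 was lower in cells labelled TG_DSS than Ctrl_DSS, and in cells labelled TG_WT than Ctrl_WT. Ifng was lower in TG_DSS than TG_WT by a fit that rested on 1 cell. No member was called between Ctrl_DSS and Ctrl_WT, and Gzma, Gzmb, Prf1, Nkg7, Xcl1 and Fasl were called in none of the 4 comparisons. Gzma passed in 1 alternative for TG_DSS against TG_WT (1.97 with the 8 genes used in clustering). The main fit gave 1.64 there, yet in batch 2, the only batch these tags share in the fit, the log2 difference was -0.59. Gzma also passed in 1 alternative for Ctrl_DSS against Ctrl_WT (2.81 with sums of at least 3 cells, edgeR adjusted p = 0.0198). The tags were uneven: in batches 1 and 2 there were 15 and 126 cells labelled TG_DSS, 4 and 99 labelled TG_WT, 47 and 5 labelled Ctrl_DSS and 29 and 4 labelled Ctrl_WT. Sums of at least 5 cells were fitted, so TG_WT entered from batch 2 only and Ctrl_WT from batch 1 only, with 3579 genes, all 8 members and 1 residual degree of freedom. The comparisons share tags, and a lone sum is assumed to vary like the others.

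Between TG_DSS and Ctrl_DSS, both present in both batches, the fit called 11 genes higher (0.307%), 4 lower (0.112%) and 15 in all (0.419%), and 122 at an unadjusted p under 0.05. Of the 8 members 1, Ccl5, was lower and 0 were higher. Ccl5 had 2080 CPM (1803 to 2378) in batch 1 and 4060 (3887 to 4245) in batch 2 in cells labelled TG_DSS, against 9130 (8638 to 9635) and 17700 (16043 to 19570) in cells labelled Ctrl_DSS, where the second value came from 5 cells. The 2 pairs did not overlap. The log2 fold change was -1.97 (SE 0.26, edgeR adjusted p = 2.38e-10), with -2.13 within batch 1 and -2.12 within batch 2. The share of cells with Ccl5 did not follow, at 60.0% and 45.2% in TG_DSS and 53.2% and 60.0% in Ctrl_DSS. The call was lost with DESeq2 (adjusted p = 0.263), with no filter on low counts (adjusted p = 1) and over the whole lymphoid cluster (adjusted p = 0.139).

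The granzymes went opposite ways in the batches. Gzma had 9860 and 1100 CPM in TG_DSS, against 2140 and 23300 in Ctrl_DSS, and Gzmb had 3120 and 1110 against 258 and 14800. The groups overlapped, with log2 differences of 2.2 and -4.38 for Gzma and 3.55 and -3.72 for Gzmb. The fitted SEs, 0.43 for Gzma and 0.6 for Gzmb, were far smaller than these gaps. They do not measure a gene's own spread between batches. In TG_DSS of batch 1, 3 cells held 97.7% of the Gzma UMIs, and in Ctrl_DSS of batch 2 the Gzma UMIs came from 2 cells. Beside the members, the cytokine genes Il22 (496 and 0 CPM, edgeR adjusted p = 5.76e-10) and Il17a (307 and 0 CPM, adjusted p = 1.61e-04) were higher in TG_DSS, with Il17f, Pclaf and Hist1h1b, and Tnf (38.8 and 302 CPM), H2-Aa and Cd74 were lower.

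Between TG_DSS and TG_WT, which share only batch 2 in the fit, 2 genes were higher (0.0559%), 2 were lower (0.0559%) and 4 were called in all (0.112%), with 45 at an unadjusted p under 0.05. Of the 8 members 1, Ifng, was lower and 0 were higher. Ifng had 349 and 241 CPM in TG_DSS, against 2090 in TG_WT of batch 2, where 722 of 833 UMIs were in 1 cell. The log2 fold change was -3.42 (SE 0.62, edgeR adjusted p = 1.08e-04), and without that cell it was -0.55 (adjusted p = 1). By share of cells Ifng stood at 13.5% in TG_DSS and 11.1% in TG_WT in batch 2. Of other genes, Penk (207 and 0 CPM) and Gm156 (239 and 12.6 CPM) were higher and Hspb1 (101 and 1160 CPM) was lower in TG_DSS.

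Between TG_WT and Ctrl_WT, 3 genes were higher (0.0838%), 4 were lower (0.112%) and 7 were called in all (0.196%), with 108 at an unadjusted p under 0.05. Of the 8 members 1, Ccl5, was lower and 0 were higher. Ccl5 had 2420 CPM (2268 to 2576) in TG_WT of batch 2, against 9670 (8977 to 10402) in Ctrl_WT of batch 1. The log2 fold change was -2.80 (SE 0.45, edgeR adjusted p = 1.71e-06), and 6 of 10 alternatives passed. No batch held both tags in the fit, so tag and batch are told apart only through TG_DSS and Ctrl_DSS. The share of cells with Ccl5 was 32.3% in TG_WT and 62.1% in Ctrl_WT. For Ifng the log2 difference was 3.45 (SE 0.9, edgeR adjusted p = 0.0505), and 0.6 (adjusted p = 1) without the cell with the most Ifng.

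Between Ctrl_DSS and Ctrl_WT, which share only batch 1 in the fit, 0 genes were higher (0.0%) and 2 were lower (0.0559%), which makes 2 in all (0.0559%), with 77 at an unadjusted p under 0.05. DESeq2 called 0 higher and 1 lower. Of the 8 members 0 were called. Ccl5 had 9130 CPM in Ctrl_DSS and 9670 in Ctrl_WT of batch 1, with overlapping intervals (log2 fold change -0.22, SE 0.33, edgeR adjusted p = 1). Gzma had 2140 CPM in Ctrl_DSS and 3670 in Ctrl_WT of batch 1 (1.48, SE 0.5, adjusted p = 0.811), where the fitted sign differs from that of the shared batch. Ccl4, another chemokine gene, was lower (30.2 and 1750 CPM, -7.34, adjusted p = 6.31e-16), as was Cd74.

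The tags also differed in the makeup of their lymphoid-like cells. Cd3-positive cells made up 80.0% and 73.8% of lymphoid-like cells in TG_DSS, 65.7% in TG_WT of batch 2, 78.7% and 100% in Ctrl_DSS and 79.3% in Ctrl_WT of batch 1. Sub-cluster 1, rich in the members, made up 46.7% and 30.2% in TG_DSS, 17.2% in TG_WT, 51.1% and 20.0% in Ctrl_DSS and 31.0% in Ctrl_WT. Cd3-positive cells were nearly level between TG_DSS and Ctrl_DSS in batch 1. Sub-cluster 1 was the larger share in TG_DSS in batch 2, where it held 1 of 5 Ctrl_DSS cells. Sub-cluster 6, with the highest Ccl5 level, made up 6.67% and 3.97% in TG_DSS, 10.1% in TG_WT, 14.9% and 20.0% in Ctrl_DSS and 27.6% in Ctrl_WT. Its share was smaller in TG_DSS than Ctrl_DSS in both batches, and in TG_WT than Ctrl_WT. It held only 1 cell in TG_DSS of batch 1 and 1 in Ctrl_DSS of batch 2. The part of this makeup in the tag results was not tested.

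Ccl5 in macrophage and monocyte-like cells was compared without a test. It was higher in TG_DSS than in Ctrl_DSS and Ctrl_WT in both batches, and so it was in TG_WT in batch 2. It had 1600 and 180 CPM in cells labelled TG_DSS (249 and 344 cells), 114 and 739 in TG_WT (31 and 360 cells) and 106 and 18.8 in Ctrl_DSS (13 and 28 cells). No UMI was found in Ctrl_WT, 0 of 23 and 0 of 13 cells. By the 3-cell limit used above, 0 of 13 leaves room for larger shares than those of TG_DSS and TG_WT in batch 2. In TG_DSS of batch 1, 1 cell held 402 Ccl5 UMIs. TG_WT and Ctrl_DSS were close in batch 1, at 31 and 13 cells. Ambient RNA held 79.5 CPM of Ccl5 in batch 1 and 110 in batch 2. TG_DSS was above TG_WT in batch 1 and below it in batch 2, and the share of cells with Ccl5 did the same (25.7% and 6.69% in TG_DSS, 3.23% and 18.9% in TG_WT).

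**Figure D5:**
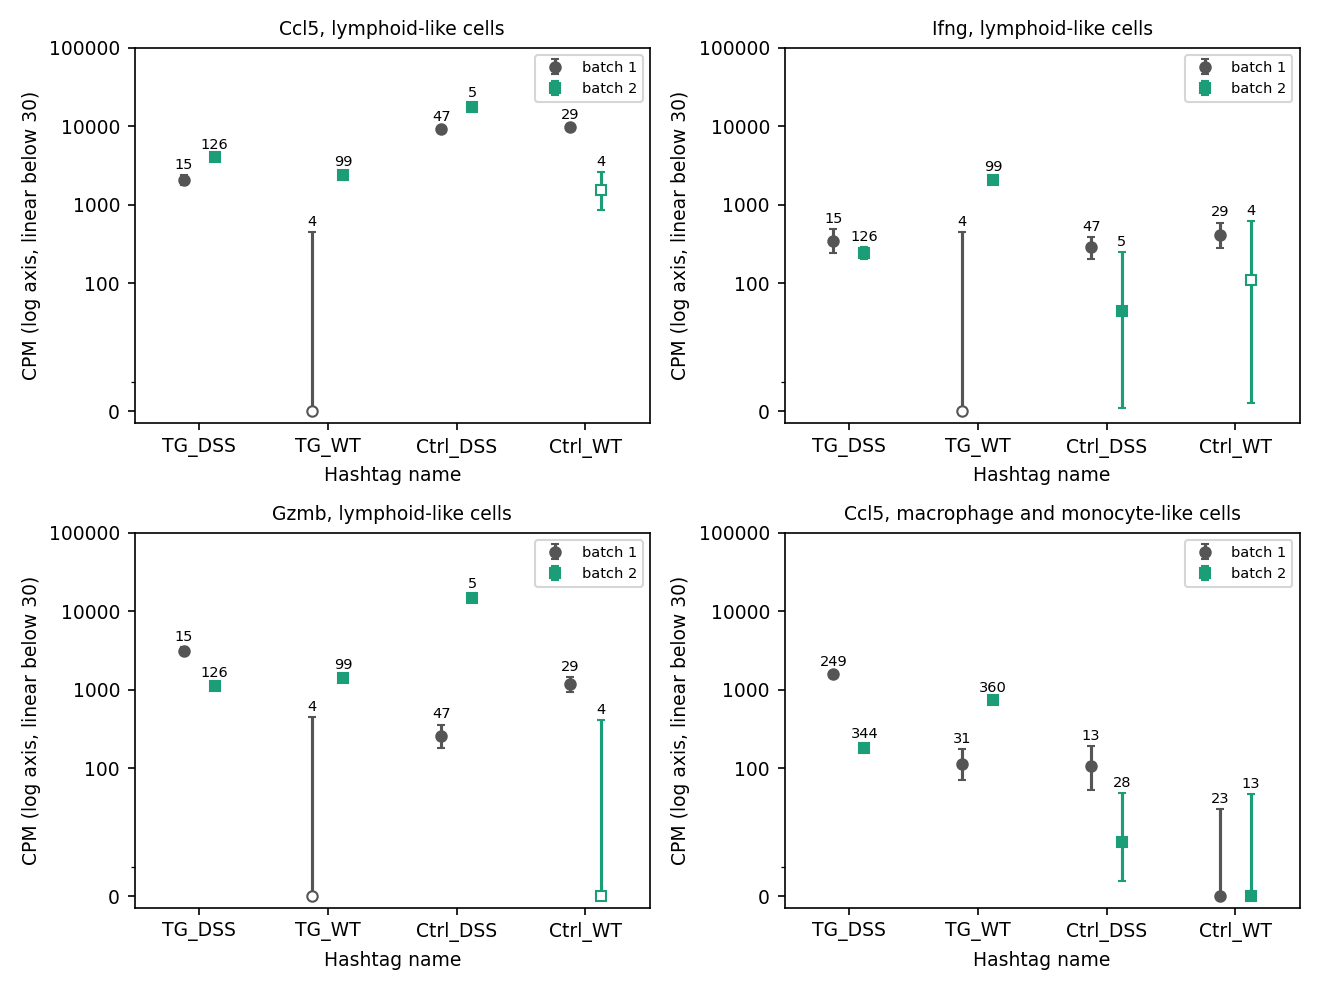
Level in CPM (symmetric log axis, linear below 30) by tag, for Ccl5, Ifng and Gzmb in lymphoid-like cells and for Ccl5 in macrophage and monocyte-like cells, 1 point per batch with the number of cells beside it. Open symbols are sums of under 5 cells, which were not fitted. Ccl5 in lymphoid-like cells is at 2080 and 4060 CPM in TG_DSS and at 9130 and 17700 in Ctrl_DSS, while Gzmb crosses over between batches.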

How the data were processed

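Each batch had 1 gene expression library and 1 hashtag library, whose matrices the authors deposited as raw counts of UMIs for 32285 genes and 4 antibody features. Batch 1 had 2082989 barcodes and 133919905 gene UMIs, batch 2 had 1567140 and 95408149. The reads had been counted with Cell Ranger 7.0.0 on mm10, per the submitters' processing notes. Gene coordinates came from GENCODE M21, of the same build, in which 99.6% of the identifiers were found. The labels state 23000 to 25000 cells loaded and 14000 targeted per batch.

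Barcodes were called as cells by size or by departure from the ambient profile (barcodes of at most 100 UMIs, 10000 draws, adjusted p at most 0.01, at least 500 UMIs), which gave 10013 and 9368. Of these, 7157 and 6472 had 250 genes or more and a mitochondrial share of no more than 25%, and were kept. Their median depth was 12301 and 7090.5 UMIs. Clusters (scanpy 1.11.5, 2000 variable genes, 30 components, 15 neighbours, Leiden resolution 1, without the 8 genes) were named from marker lists, with at least 3 markers in 25% of cells. A cluster of 455 lymphoid cells was clustered again, and its 344 lymphoid-like cells were used. Kept apart, by limits set after the data were seen, were 37 cells with markers of other cells, 29 mast and basophil-like cells and 45 unnamed cells with a median of 711 UMIs and no UMI of the 8 genes. Tags were called with a 2-component mixture per tag and batch, and doublets by tag (266 and 699 cells of all classes over several thresholds) stayed out of tag comparisons. The automatic threshold of Scrublet marked 0% of cells and had not worked, so an alternative left out the 5.73% and 5.18% with the highest score.

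UMIs were summed per batch and Cd3 status, or per batch and tag, and tested over all genes past the expression filter with edgeR 4.0.16 in R 4.3.3 (quasi-likelihood test, TMM, Benjamini-Hochberg at 0.05). Batch was a block, since both classes and all tags of a batch come from 1 pool. The SE is the absolute log2 fold change divided by the square root of the F statistic. Alternatives are given in the closing section. The script was tested on simulated data. Named beside the 8 genes were up to 10 genes in each direction for Cd3 status and up to 5 per tag comparison, those with the largest fold change past the threshold, changed the same way in the shared batches, at 50 CPM or more in the higher group. Tag genes were named only where the tags shared a batch. The 8 genes and the lists were chosen with earlier results of these data known.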

Additional observations from a re-analysis of the deposited data

Results flagged for a closer look

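The Ifng difference between Cd3-positive and Cd3-negative lymphoid-like cells had opposite signs in the batches, with a log2 difference of 0.6 in batch 1 and -5.0 in batch 2. The batch 1 value shows no clear direction. Its Cd3-negative level came from 9 UMIs, with an interval of 101.2 to 420.2 CPM that spans the Cd3-positive level of 340 CPM. With 1 sum per class and batch, the difference between batches was not tested. In batch 2, 722 of the 864 Ifng UMIs of Cd3-negative cells were in 1 cell labelled TG_WT, of 9031 UMIs in all, which also had 113 Gzmb, 127 Ccl5 and 75 Xcl1 UMIs and no Gzma. It was among the cells with the highest Scrublet scores, and the fitted log2 fold change without it was -1.28.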

How the results depend on the processing

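The Cd3 comparison called 128 genes (45 higher and 83 lower). It called 31 with DESeq2, 62 with no replicate block, 78 with at most 10% mitochondrial UMIs, 45 with Trac, Trbc1 and Trbc2 counted toward T cell status (22 and 23) and 40 with sums per batch and tag. Chosen after seeing the data, the whole lymphoid cluster gave 254, the mixed sub-clusters added gave 60 (32 higher and 28 lower), leaving out cells with more than 1 tag gave 68, and leaving out the cell with the most Ifng gave 178. The causes were not tested. Reversed were Gzmb (-0.14) and Fasl (-0.33) with Cd3 status from thinned cells, and Ifng with the receptor genes counted (0.73) and without replicate 2 (0.6). Leaving out a batch left no test, and Gzma then had 6.68 to 6.83 and Ifng -5.0 to 0.6. Of 119 values of the 8 genes under alternatives, 88 counted as unchanged, 12 fell below the threshold, 7 passed it, 8 moved and 4 reversed. Unchanged fits kept their direction and side of the threshold. Values without a batch, and shares of cells after thinning, counted as unchanged within the SD of the 2 batch values. For values without a batch that SD comes from the same 2 values, so the 88 do not measure stability.

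Tag counts were smaller under most settings. In the order TG_DSS against TG_WT, TG_DSS against Ctrl_DSS, TG_WT against Ctrl_WT and Ctrl_DSS against Ctrl_WT, the main fit called 4, 15, 7 and 2. DESeq2 called 0, 0, 0 and 1 (8, 28, 19 and 15 at an unadjusted p under 0.05). With no filter on low counts these were 0, 4, 0 and 1 (30, 91, 80 and 48), with no replicate block 1, 3, 0 and 0 (72, 116, 133 and 98), and with at most 10% mitochondrial UMIs 1, 7, 0 and 1 (88 unadjusted for TG_WT against Ctrl_WT). The highest-tag rule gave 9, 4 and 1 for the last 3. For Ctrl_DSS against Ctrl_WT, clustering with the 8 genes gave 5 and the whole cluster 4. Sums of at least 3 cells, added after seeing the data, gave 1 for TG_DSS against TG_WT. Without Ctrl_WT replicate 1 the first 2 counts were 4 and 12, and without TG_WT replicate 2 TG_DSS against Ctrl_DSS had 11 and Ctrl_DSS against Ctrl_WT had 2. Leaving out any sum of TG_DSS or Ctrl_DSS, or asking for 10 cells, left 0 residual degrees of freedom, so no test was run. Prf1, with 8 and 22 UMIs in Cd3-positive and 1 and 9 in Cd3-negative cells, was limited by depth.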
